A study of Homo sapiens with 6 samples.

Results

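The genes described here encode the cytosolic HSP90 chaperone and the partners with which it prepares steroid receptors for hormone binding. The set holds 10 genes, all found by symbol among the 37202 genes of the deposited table and all among the 21509 that passed the filter on low counts. It was assembled around PTGES3 (ENSG00000110958), the gene of the co-chaperone p23, because earlier results of these data had called that gene lower in NR3C2-OE than in Control (edgeR adjusted p = 0.0319 over all genes tested). That value, and the fold changes of all 10 genes in the same contrast, are therefore a description and no independent evidence. The cells were HK2, an immortalized human line of kidney proximal tubule epithelium. The 3 NR3C2-OE libraries came from HK2 cells transfected by cationic lipid with a plasmid for overexpression of NR3C2, the mineralocorticoid receptor, and the 3 Control libraries from HK2 cells of normal genotype. The treatment of the Control cells, the time of harvest and the presence of a receptor ligand are not stated in the labels. Nor is it stated that libraries came from separate cultures, so the spread that p-values measure here may be technical. RNA was taken from whole cultures, in which a smaller share of cells with a transcript and less transcript per cell cannot be told apart.

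HSP90 is a dimeric, ATP-driven chaperone that completes the folding of a restricted set of clients, among them the receptors for mineralocorticoids, glucocorticoids and progestins. A receptor is first held by HSP70 with ST13 (HIP), is handed to HSP90 through the adaptor STIP1 (HOP), and then matures in a complex with p23 and an immunophilin such as FKBP4 or PPID, in which it can bind hormone. p23 slows ATP hydrolysis by HSP90 and so prolongs that complex, AHSA1 speeds hydrolysis, CDC37 brings protein kinases, and the ubiquitin ligase STUB1 (CHIP) marks clients for degradation.

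The HSP90 genes are textbook targets of heat shock factor HSF1, which binds inverted repeats of a short GAA unit. The 250 bases before a RefSeq start of PTGES3 and of both HSP90 genes (build GRCh38.p14) are shown 5′ to 3′ on the strand of the gene. Both HSP90 genes have further listed starts, and for each the window shown was picked because it held matches. Capitals mark each match to TTCNNGAA or GAANNTTC, both of which read the same on either strand. Where a match of the first kind and one of the second share a GAA or TTC unit, they form a run of 3 units.
PTGES3, chr12:56688285-56688534, minus strand: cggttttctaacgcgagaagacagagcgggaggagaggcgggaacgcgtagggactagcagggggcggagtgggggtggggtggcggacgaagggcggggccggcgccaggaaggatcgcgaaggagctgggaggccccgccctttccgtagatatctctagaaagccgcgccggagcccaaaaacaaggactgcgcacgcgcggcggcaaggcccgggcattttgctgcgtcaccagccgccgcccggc
HSP90AA1, chr14:102087045-102087294, minus strand: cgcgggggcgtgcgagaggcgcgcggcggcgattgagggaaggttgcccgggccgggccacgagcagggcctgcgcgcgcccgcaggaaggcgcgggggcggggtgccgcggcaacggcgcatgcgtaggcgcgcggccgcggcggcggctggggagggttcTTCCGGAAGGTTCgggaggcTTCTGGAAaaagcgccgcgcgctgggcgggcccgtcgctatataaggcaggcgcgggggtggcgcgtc
HSP90AB1, chr6:44247693-44247942, plus strand: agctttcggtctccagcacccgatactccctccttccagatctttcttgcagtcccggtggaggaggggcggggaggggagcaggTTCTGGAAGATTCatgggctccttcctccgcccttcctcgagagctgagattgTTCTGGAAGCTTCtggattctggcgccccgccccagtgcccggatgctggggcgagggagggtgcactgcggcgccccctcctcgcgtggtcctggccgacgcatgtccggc

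RefSeq windows were matched for 7 of the 10 genes, 12 windows in all, since several genes have more than 1 listed start. A run of 3 units lay 88 to 76 bases before the HSP90AA1 start shown. In HSP90AB1 such runs lay both 165 to 153 and 112 to 100 bases before the start shown. HSP90AA1 held a further match of 2 units 68 to 61 bases before the start shown. These were the only matches among the 12 windows, so the windows of PTGES3, PPID, STIP1, AHSA1 and CDC37 held none of these letters. Of all 35116 RefSeq windows of that length, 0.441% held a run of 3 units and 11.6% a match of 2 units. HSP90AA1 held CCAAT on the opposite strand in its other window, and 1 of the STIP1 windows held CCAAT at 4 places (CCAAT or its complement was in 32.0% of all windows) and TATAAA on the opposite strand (10.7%). A match is a description of letters and not evidence of binding.

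Estimated counts per library ran from 77737375 to 132533971. In FPKM, the deposited level per length of transcript and depth of library, NR3C2 had 5.97, 6.26 and 5.16 in the Control group (libraries 1, 2 and 3, the order used throughout) and 12.1, 6.95 and 7.41 in the NR3C2-OE group. The groups did not overlap, yet NR3C2 did not pass the test over all genes (edgeR adjusted p = 0.486). Of the 15 kidney epithelial markers measured, PAX8 had 133 ± 8.91 FPKM in Control and KRT8 had 199 ± 6.38 (SD, n = 3). In NR3C2-OE, KRT8 had 198 ± 6.20 FPKM, with overlap, and PAX8 had 150 ± 6.05 FPKM, without overlap. PAX8 was not called (log2 fold change in counts 0.12, SE 0.054), and its part in any result was not tested. The cadherin gene CDH1 was nearly absent, at 0.165 FPKM or less in every library, as was PAX2, at 0.13 FPKM or less. Within Control, the cadherin gene CDH2 stood at 34.4 ± 4.31 FPKM and VIM at 799 ± 63.5 FPKM. Whether the listed markers show an epithelial state was not tested. The sum over the list, to which VIM added most, was 1382 to 1526 in Control and 1425 to 1511 in NR3C2-OE. Of the proximal tubule genes, CUBN and AQP1 were below 0.1 FPKM in every library and SLC34A1 at 0.14 FPKM or less, while MME stood at 5.80 ± 1.43 and 5.41 ± 1.21 FPKM in the respective groups. GGT1, a brush border enzyme, had 16.3, 17.5 and 45.5 FPKM in Control and 56.7, 54.0 and 51.1 FPKM in NR3C2-OE, with no overlap and no call (log2 fold change in counts 1.23, SE 0.60), and its part in any result was not tested. Of 8 markers of other cell types, 5 (PECAM1, VWF, HBB, PDGFRB and PDGFRA) were below 0.1 FPKM in every library. The sum over these 8 was 28.2 to 29.8 FPKM in Control and 31.1 to 38.1 in NR3C2-OE, most of it CD68, which many cells carry in lysosomes. COL1A1 of the same list was also present, at 7.48 ± 1.02 FPKM in Control and 6.89 ± 0.37 in NR3C2-OE, with overlapping groups. CD68 had 20.9 ± 0.15 and 27.1 ± 3.37 FPKM without overlap (log2 fold change 0.38, SE 0.090), was called by DESeq2 (adjusted p = 0.0405) and not by edgeR (adjusted p = 0.338), and its part in any result was not tested.

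PTGES3 showed by far the greatest difference of the 10 genes. Its level was 190.3, 197 and 205 FPKM in Control and 121, 105 and 107 FPKM in NR3C2-OE. The groups were far apart, with the highest NR3C2-OE library well below the lowest Control library. Its mean fell by 43.8%, from 198 ± 7.58 to 111 ± 8.92 FPKM (SD, n = 3). In the estimated counts the log2 fold change was -0.91 (SE 0.067, 95% interval -1.10 to -0.72). NR3C2-OE library 1, which had the most NR3C2, had the least reduced PTGES3. That is 1 library, and a relation between the levels of NR3C2 and PTGES3 was not tested. Of the 6 fits that each left out 1 library, 2 kept the call, those lacking NR3C2-OE library 1 (edgeR adjusted p = 0.0224) or NR3C2-OE library 2 (0.0433). It was lost when Control library 1 (0.0837), Control library 2 (0.0776), Control library 3 (0.0965) or NR3C2-OE library 3 (0.0655) was left out. Across those fits the log2 fold change stayed between -0.98 and -0.86. Of the 1051 tested genes with a mean of at least 100 FPKM, PTGES3 was the only one called (0.0951%) and had the 6th most negative log2 fold change. The others ahead of it, 4 loci without a gene name and MIR1244-1, had standard errors of 0.49 or more.

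**Figure D1:**
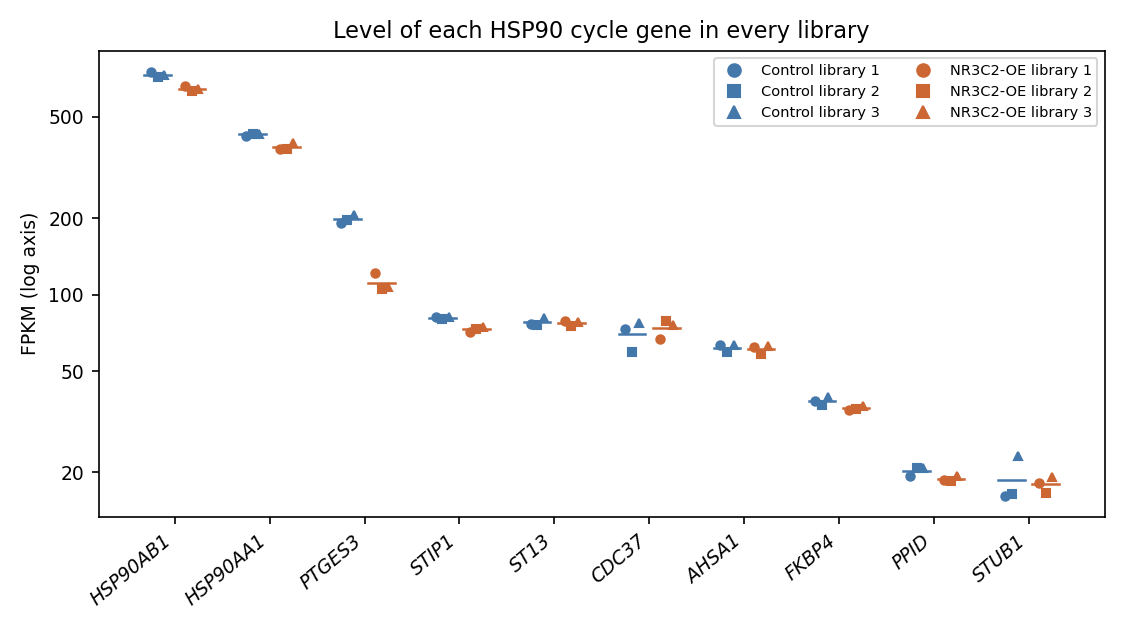
FPKM (log axis) of the 10 genes in each library, ordered by the Control mean, with Control in blue, NR3C2-OE in orange, a symbol shape for each library number and a line at each group mean. PTGES3 is the gene whose groups part most, at 190.3 to 205 FPKM in Control and 105 to 121 in NR3C2-OE, while ST13, AHSA1, CDC37 and STUB1 overlap.

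The HSP90 genes were the most abundant of the set. HSP90AB1, the constitutive isoform, had 751, 717 and 728 FPKM in Control and 661, 635 and 644 FPKM in NR3C2-OE. HSP90AA1, the isoform more responsive to stress, had 422, 429 and 429.6 FPKM in Control and 373, 375 and 393 FPKM in NR3C2-OE. For both genes every NR3C2-OE library lay below every Control library. The means were 732 ± 17.5 and 647 ± 13.3 FPKM for HSP90AB1, a difference of -11.7%, and 427 ± 4.45 and 380.3 ± 11.1 FPKM for HSP90AA1, a difference of -10.9%. The log2 fold changes in the counts were -0.20 (SE 0.038, 95% interval -0.31 to -0.096) and -0.19 (SE 0.037, 95% interval -0.30 to -0.091). Neither passed edgeR's test over all genes (adjusted p = 0.263 and 0.264), although the DESeq2 Wald test called both (adjusted p = 0.0324 and 0.0378). The ratio of HSP90AB1 to HSP90AA1 was 1.78, 1.67 and 1.69 in Control and 1.77, 1.69 and 1.64 in NR3C2-OE, with overlapping groups. Both isoforms thus kept their proportion within the spread.

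STIP1, FKBP4, PPID, ST13 and STUB1 all dock on HSP90 or HSP70 through tetratricopeptide (TPR) repeats. STIP1 and both immunophilins had slightly lower levels in NR3C2-OE without overlap, whereas the groups of ST13 and STUB1 overlapped. STIP1, the adaptor that joins HSP70 to HSP90, had 81.5, 79.8 and 81.7 FPKM in Control and 71.5, 73.3 and 74.5 FPKM in NR3C2-OE, with no overlap. Its log2 fold change was -0.16 (SE 0.038, edgeR adjusted p = 0.332). FKBP4, the immunophilin FKBP52 that links receptors to dynein, had 38.1, 36.8 and 39.7 FPKM in Control and 35.0, 35.3 and 36.4 FPKM in NR3C2-OE (log2 fold change -0.14, SE 0.047, edgeR adjusted p = 0.486). PPID, the cyclophilin Cyp40, had 19.4, 20.7 and 20.7 FPKM in Control and 18.7, 18.5 and 19.3 FPKM in NR3C2-OE (log2 fold change -0.13, SE 0.056, edgeR adjusted p = 0.556). The FKBP4 and PPID groups also did not overlap, but the gap between the nearest libraries was narrow in both. ST13, which stabilizes HSP70 on its client early in the cycle, had 76.7, 76.1 and 80.5 FPKM in Control and 78.4, 75.4 and 78.3 FPKM in NR3C2-OE. Its groups overlapped (log2 fold change -0.02, 95% interval -0.15 to 0.11).

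The remaining members had overlapping groups. AHSA1, the activator of HSP90 ATPase activity, had 63.1, 59.5 and 63.0 FPKM in Control and 61.9, 58.2 and 62.5 FPKM in NR3C2-OE (log2 fold change -0.07, 95% interval -0.21 to 0.067, and -0.040 without NR3C2-OE library 2). CDC37, the kinase-specific co-chaperone, had 72.8, 59.3 and 76.9 FPKM in Control and 67.0, 78.8 and 75.5 FPKM in NR3C2-OE. Its spread was wide in both groups, with Control library 2 lowest and NR3C2-OE library 2 highest, and its log2 fold change was 0.06 (95% interval -0.24 to 0.37). STUB1 had 16.2, 16.4 and 23.1 FPKM in Control and 18.2, 16.5 and 19.2 FPKM in NR3C2-OE, with Control library 3 above all others (log2 fold change 0.06, 95% interval -0.20 to 0.31). The coefficient of variation within Control was 13.3% for CDC37 and 21.1% for STUB1, against 3.84% or less for each of the other 8 genes, and within NR3C2-OE it was 8.23% and 7.52%, against 8.03% for PTGES3 and 3.83% or less for the other 7 genes.

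**Figure D2:**
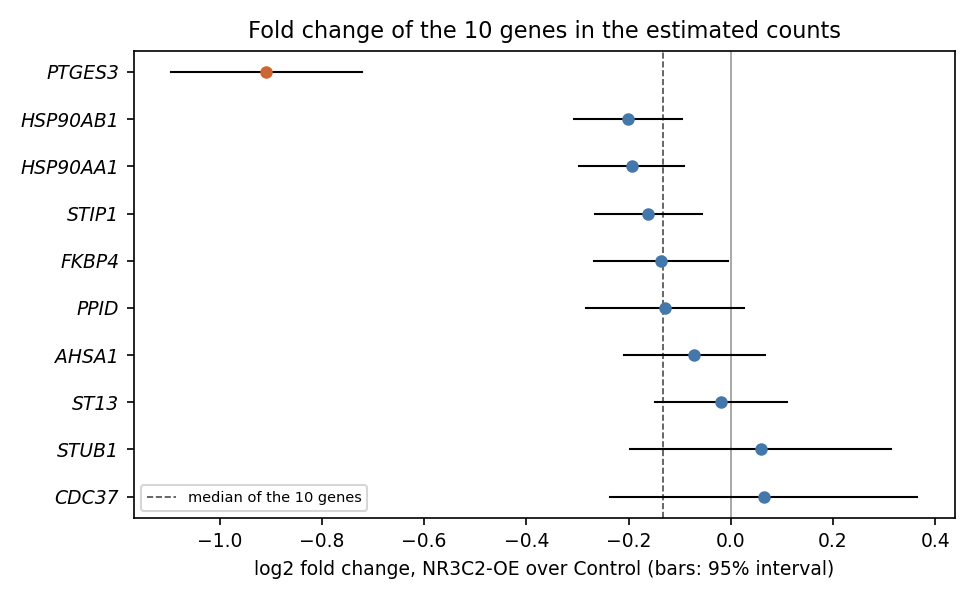
Log2 fold change of NR3C2-OE over Control in the estimated counts for each of the 10 genes, with bars for the 95% interval and a dashed line at their median of -0.13. PTGES3 (orange, called over all genes) lies at -0.91, apart from the other 9 genes (blue, not called), which lie between -0.20 and 0.06.

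As a group, 8 of the 10 genes had negative and 2 positive log2 fold changes, where 49.8% of all tested genes were negative. The median was -0.13, and -0.13 without PTGES3, beside 0.00071 for all 21509 genes and -0.01 for the 1051 genes of at least 100 FPKM. In edgeR's test 1 of 10 passed over all genes, against 0.0279% of all tested genes in either direction and 0.0139% that were lower. At an unadjusted p below 0.05, 5 of 10 were lower (PTGES3, HSP90AB1, HSP90AA1, STIP1 and FKBP4) and 0 higher, where 9.19% of all tested genes lay in either direction, 4.76% lower and 4.43% higher. Among genes of at least 100 FPKM, 9.32% were lower at that level. FPKM did not overlap and was lower in NR3C2-OE for 6 of 10, against 6.65% of all tested genes, and was higher without overlap for 0 of 10, against 9.38%. Depth-scaled counts were lower without overlap for 6 of 10, against 8.75%. DESeq2 called 3 of 10, against 1.83% of the 17316 genes to which it gave an adjusted p. Since the choice of genes rested on this contrast, nothing is read from these shares. The median standard error was 0.048 for the 10 genes and 0.15 for all tested genes. Summed over the 10 genes, the level was 1692 to 1748 FPKM in Control and 1471 to 1510 in NR3C2-OE. PTGES3 made up 37.9% of the difference of the group means, HSP90AB1 37.4% and HSP90AA1 20.4%.

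In all 6 libraries the 3 highest levels were in the order HSP90AB1, HSP90AA1 and PTGES3. In Control, PTGES3 stood 2.44-fold above the next gene, STIP1, and in NR3C2-OE 1.44-fold above the next, ST13. STIP1, ST13, CDC37 and AHSA1 followed in Control with ranges that overlapped from each to the next, so their order there is not set beyond the spread. In NR3C2-OE the order was ST13, CDC37 and STIP1, again with overlap, and AHSA1 lay below them. FKBP4 was lower than AHSA1 without overlap in both groups, and PPID and STUB1 were lowest and overlapped each other.

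Relative to HSP90 transcripts, those of p23 were fewer in NR3C2-OE, while the other co-chaperones overlapped between groups or lay slightly higher. Per 100 FPKM of HSP90AA1 and HSP90AB1 together, PTGES3 stood at 16.2, 17.2 and 17.8 in Control and at 11.7, 10.4 and 10.3 in NR3C2-OE, with no overlap. The group means were 17.1 ± 0.77 and 10.8 ± 0.80 (SD, n = 3), a log2 ratio of -0.66. STIP1 stood at 6.95, 6.96 and 7.06 per 100 in Control and at 6.92, 7.26 and 7.18 in NR3C2-OE, so it kept its proportion to HSP90 within the spread. ST13 stood at 6.54, 6.64 and 6.96 in Control and at 7.58, 7.46 and 7.55 in NR3C2-OE. AHSA1 went from 5.34 ± 0.13 to 5.93 ± 0.14 and PPID from 1.75 ± 0.085 to 1.83 ± 0.025, both without overlap, and FKBP4, CDC37 and STUB1 overlapped. The summed HSP90 level was itself lower in NR3C2-OE, at 1159 ± 13.3 FPKM in Control and 1027 ± 14.6 in NR3C2-OE. In FPKM, ST13 differed by -0.57%, AHSA1 by -1.61% and PPID by -7.17%, so none of these was raised in level. The ratio of STIP1 to ST13, which act in turn in receptor loading, was 1.06, 1.05 and 1.01 in Control and 0.91, 0.97 and 0.95 in NR3C2-OE. FKBP4 and FKBP5 are immunophilins that compete for the receptor complex, and FKBP4 was 4.52 ± 0.11 times as abundant as FKBP5 in Control and 4.15 ± 0.14 times in NR3C2-OE, without overlap. No ratio was tested, since the genes were chosen on this contrast and an exact permutation test of 3 against 3 libraries cannot give a p below 0.10. These are transcript levels, and protein was not measured.

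**Figure D3:**
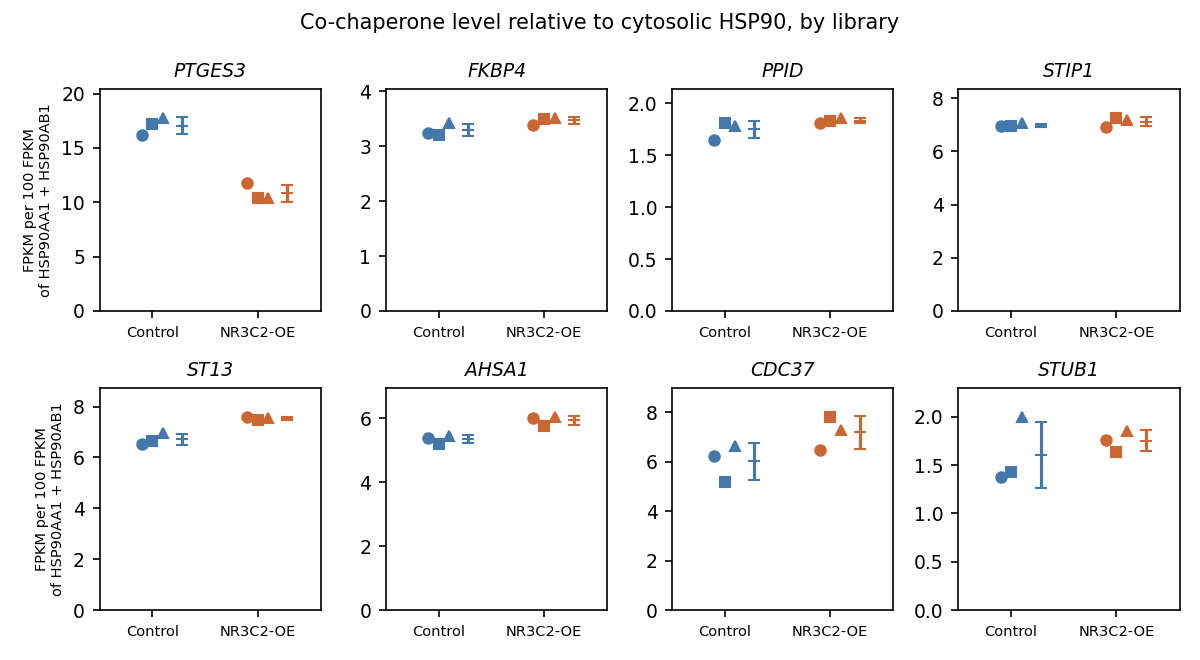
FPKM of each co-chaperone per 100 FPKM of HSP90AA1 and HSP90AB1 summed, by library, with group mean and SD beside the points and every vertical axis starting at 0. PTGES3 has a mean of 17.1 per 100 in Control and 10.8 in NR3C2-OE, whereas STIP1 has 6.99 and 7.12, and no other gene is lower in NR3C2-OE.

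The deposited FPKM and counts together imply a transcript length for each gene. That length, scaled to the total estimated count, was 2341, 2284 and 2271 bases for PTGES3 in Control and 2185, 2200 and 2222 bases in NR3C2-OE, a difference of -4.19% without overlap. Its part in the PTGES3 values was not tested, and the log2 fold change was -0.91 in counts and -0.83 in log2(FPKM + 1). For the 2 HSP90 genes, FKBP4, PPID, STIP1, ST13, AHSA1 and CDC37 the group means differed less, most in AHSA1, at -2.15% without overlap. STUB1 varied most among libraries, from 1068 bases in Control library 3 to 1471 in NR3C2-OE library 1. Pseudogenes that resemble the members took few counts. Those of PTGES3 held 1.16% to 2.37% of its own counts, those of ST13 1.64% to 2.11% and those of the other 5 members that have any among the genes measured 0.701% or less. Adding their counts left PTGES3 at a log2 fold change of -0.90. HSP90AA1 overlaps WDR20, PPID overlaps ETFDH and STUB1 overlaps JMJD8 in the RefSeq annotation, and whether the counting used strand is not given in the sources used here. JMJD8, with 17.4 FPKM in Control, was about as abundant as STUB1 with 18.6, so the STUB1 values are uncertain.

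Other genes of the HSP90 system were taken from lists of textbook partners. Their counts stand beside 4.76% lower and 4.43% higher at an unadjusted p below 0.05 over all tested genes. DESeq2 called 1.83% of the genes to which it gave an adjusted p. Of the 13 further TPR and immunophilin partners 0 passed edgeR's test over all genes, with 1 lower and 0 higher at an unadjusted p below 0.05, a median log2 fold change of -0.03 and 0 calls by DESeq2. The lower gene was SGTA, which handles tail-anchored proteins and binds receptors (33.3 ± 5.01 and 25.5 ± 2.79 FPKM, log2 fold change -0.32, SE 0.12, and -0.20 without Control library 3). Among 12 CS-domain relatives of p23 and other co-chaperones, 0 passed, 2 were lower and 1 higher before adjustment (p below 0.05), and 1 was called by DESeq2. Those 3 were CHORDC1 (log2 fold change -0.25, SE 0.089) and NUDC (-0.11, SE 0.044), which both bind HSP90, and FNIP2, the folliculin partner that slows HSP90 (8.74 ± 0.36 and 10.1 ± 0.55 FPKM, log2 fold change 0.23, SE 0.045). In FPKM the groups of CHORDC1 overlapped, while those of NUDC and FNIP2 did not. The p23-like gene PTGES3L had 0.69 to 1.05 FPKM over all libraries. In the R2TP and TTT complexes, by which HSP90 assembles large kinases and polymerases, 0 of 7 passed, and only the ATPase RUVBL1 was lower at an unadjusted p below 0.05 (log2 fold change -0.18, SE 0.045). Its FPKM overlapped, at 40.4, 38.0 and 39.1 in Control and 33.7, 42.7 and 35.5 in NR3C2-OE. DESeq2 called 0 of these 7. The HSP90 paralogs of the endoplasmic reticulum and of mitochondria, HSP90B1 and TRAP1, had log2 fold changes of -0.10 (SE 0.064) and 0.10 (SE 0.070), with 0 of 2 at an unadjusted p below 0.05 and 0 called by DESeq2. Without Control library 3 these values were -0.05 and 0.04, without NR3C2-OE library 2 that of HSP90B1 was -0.07, and without Control library 2 that of TRAP1 was 0.17.

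Genes of the HSP70 step, which loads receptors onto HSP90, had log2 fold changes of the same sign as the HSP90 genes in all 11 measured, with a median of -0.17. The sign of DNAJB1 (-0.32, SE 0.33) rested on Control library 1. Its levels were 40.2, 18.5 and 19.8 FPKM in Control and 18.3, 26.1 and 19.2 FPKM in NR3C2-OE. In edgeR's test 0 of 11 passed over all genes, 5 were lower before adjustment (p below 0.05) and 1, HSPA8, was called by DESeq2. Of these 5, DNAJA2 had overlapping FPKM, at 35.8 ± 6.04 in Control and 35.8 ± 5.27 in NR3C2-OE. Of all tested genes 49.8% were negative and 4.76% were lower before adjustment (9.32% of genes of at least 100 FPKM). DESeq2 called 1.83% of the genes to which it gave an adjusted p. HSPA8, the constitutive HSP70, had 1071, 850.3 and 1042 FPKM in Control and 505, 637 and 731 FPKM in NR3C2-OE. Its counts differed less than its FPKM (log2 fold change -0.48, SE 0.080), and its implied length was 1737, 1842 and 1779 bases in Control and 2500.3, 1906 and 1857 bases in NR3C2-OE, with NR3C2-OE library 1 far above the others. For DNAJA1, a J-domain partner of HSP70, levels were 87.5 ± 2.10 and 78.6 ± 2.18 FPKM (log2 fold change -0.18 with SE 0.046). The inducible HSPA1A, which has a near-identical copy, HSPA1B, and is uncertain for that reason, had 5.18 ± 0.067 and 4.52 ± 0.28 FPKM (log2 fold change -0.22, SE 0.078). Of HSF1 and 17 genes tied to it, several of which also belong to the HSP70 step, 15 had negative log2 fold changes (median -0.17), 0 passed and 9 were lower before adjustment (p below 0.05). The shares over all tested genes are the same 49.8% negative and 4.76% lower. HSPA8 and CRYAB were the 2 called by DESeq2. The 9 included the mitochondrial chaperonin HSPD1 (log2 fold change -0.16, SE 0.040) and the small heat shock protein CRYAB (-0.27, SE 0.055). The transcript of HSF1 itself had 9.25, 3.03 and 6.18 FPKM in Control and 8.26, 10.6 and 9.03 FPKM in NR3C2-OE, so its groups overlapped.

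Of the client receptor genes NR3C2, NR3C1 and AHR, only NR3C2 had groups that did not overlap. The glucocorticoid receptor gene NR3C1 had 7.46 ± 0.43 and 7.51 ± 0.64 FPKM, and the dioxin receptor AHR, which also needs HSP90 and p23, had 3.88 ± 0.27 and 3.86 ± 0.17 FPKM. PGR, the progesterone receptor gene, was below 0.1 FPKM in every library, and ESR1, the estrogen receptor gene, was at 0.12 FPKM or less. None of NR3C2, NR3C1, AHR and ESR1 passed edgeR's test or was called by DESeq2, and NR3C2 alone of these was below 0.05 before adjustment, while PGR was too low to be tested. Of 7 receptor target genes 0 passed edgeR's test, 2 were lower (SGK1 and DUSP1) and 1 higher (TSC22D3) before adjustment (p below 0.05), the same 3 that DESeq2 called. Their log2 fold changes were -0.23 (SE 0.038), -0.44 (SE 0.055) and 0.46 (SE 0.11) respectively, and their FPKM did not overlap between groups. Over all tested genes 4.76% were lower and 4.43% higher before adjustment. DESeq2 called 1.83% of the genes to which it gave an adjusted p. FKBP5, the target that is itself an HSP90 immunophilin, had 8.45 ± 0.22 and 8.60 ± 0.48 FPKM.

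PTGES3 also carries the name cytosolic prostaglandin E synthase, and genes of that pathway were of mixed sign. Of 13 genes 8 had positive log2 fold changes (median 0.12), 0 passed edgeR's test, 3 were higher and 0 lower before adjustment (p below 0.05), and 0 were called by DESeq2, where 4.43% of all tested genes were higher and 4.76% lower before adjustment. The inducible synthase PTGES had 24.6, 23.2 and 23.1 FPKM in Control and 30.9, 30.4 and 26.6 FPKM in NR3C2-OE (log2 fold change 0.29, SE 0.073). PTGES2, the third synthase, had 14.4 ± 2.11 and 15.5 ± 0.86 FPKM. HPGD, which inactivates prostaglandins, and the exporter ABCC4 had log2 fold changes of 0.23 (SE 0.069) and 0.12 (SE 0.039). The cyclooxygenase genes were low, with PTGS2 at 0.43 FPKM or less and PTGS1 at 1.11 FPKM or less.

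**Figure D4:**
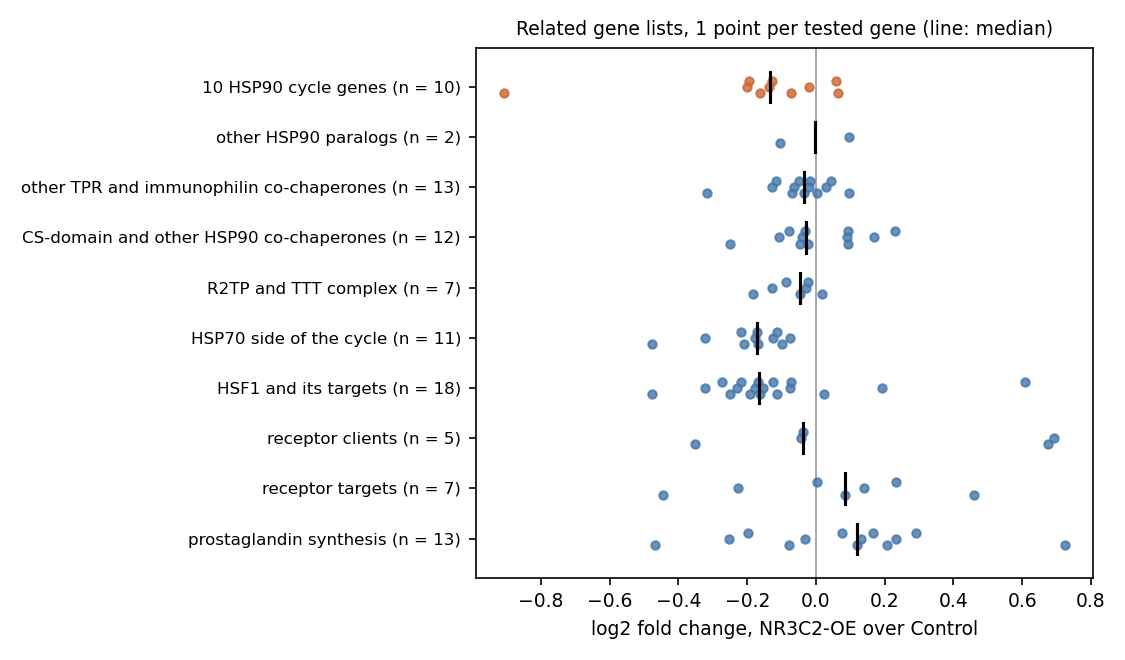
Log2 fold change of NR3C2-OE over Control for each tested gene of the 10-gene set (orange) and of 9 related lists (blue), 1 point per gene, with a black line at the list median. The HSP70 step and the HSF1 list lie mostly below 0, with medians of -0.17, while the prostaglandin list has a median of 0.12. Some genes stand in more than 1 list.

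Among 6484 other genes with a mean of at least 10 FPKM, the 3 whose log2(FPKM + 1) over the 6 libraries correlated best with PTGES3 were ERLIN1 (Pearson r = 0.994), PEG10 (0.983) and ALDH1B1 (0.982). HSP90AB1 had r = 0.963 with PTGES3 (rank 27), HSP90AA1 0.928 (rank 77) and STIP1 0.922 (rank 91), whereas ST13 had 0.23 and CDC37 -0.37. The 6 points lie in separate groups and share libraries and depth, so these values are a description. PEG10 had 49.4, 48.5 and 49.6 FPKM in Control and 39.2, 37.1 and 39.6 FPKM in NR3C2-OE, a smaller step than that of PTGES3.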

How the data were processed

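The libraries were strand-specific and paired-end, per the labels. The submitters' processing notes name cutadapt 1.2.1 for trimming. For aligner, counting program, genome build and annotation, no statement was found (not given in the sources used here). The authors deposited for each of 6 libraries an FPKM value per gene. They also deposited an estimated count, a unit read from the values, which are whole and differ in sum between libraries. Among low estimated counts 4 was more frequent (8694 values) than 3 (5772) or 5 (5504), so they are not tallies of single fragments and may overstate depth. All 36466 Ensembl identifiers matched a symbol.

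The counts were tested with glmQLFit and glmQLFTest of edgeR 4.0.16 (R 4.3.3) after filterByExpr and TMM scaling, with group as the only term, and Benjamini-Hochberg adjustment over 21509 genes. All p-values are two-sided. Standard errors come from the F statistics, and 95% intervals use 4 residual degrees of freedom, which makes them wider than the test. FPKM are mean ± SD over 3 libraries. The steps were tested on simulated data. The 10 genes and all lists were chosen with earlier results of these data known. Named genes were the 10 members, receptor clients, up to 4 genes per list by p, and the 3 closest patterns. FKBP5, HSF1, HSPA1B, DNAJB1, PTGES2, PTGES3L, PTGS1, PTGS2, MIR1244-1, overlapping genes and markers were named outside that rule, after their values were seen. A receptor client that the rule names is not reported here. Alternatives used DESeq2 1.42.0 and limma 3.58.1.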

Additional observations from a re-analysis of the deposited data

How the results depend on the processing

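The sign of the PTGES3 log2 fold change and of the median of the 10 genes was negative in all 17 alternatives run. Leaving out 1 library gave -0.98 to -0.86 for PTGES3, -0.15 to -0.11 for the median, 0 to 1 members called, 5 to 18 genes called over the whole table, and -0.72 to -0.63 for the log2 ratio of PTGES3 to summed HSP90. That ratio was -0.71 from estimated counts, an alternative chosen after seeing the data, as were leaving libraries out of that ratio and counts divided by 4. With the replicate number as a block, edgeR called 0 genes and 0 members (PTGES3 log2 fold change -0.91, adjusted p = 0.530), while 1490 genes and 5 members had an unadjusted p below 0.05, against 1976 and 5 without the block. Deviations of libraries with the same number correlated at 0.027, 0.016 and 0.0038, none over 0.1, and not every library correlated best with its own number. Taken over all tested genes from 3 libraries a group, these correlations cannot settle whether libraries with the same number were paired. limma-trend on log2(FPKM + 1) called 0 members (PTGES3 -0.83, adjusted p = 0.0522; 4 members at an unadjusted p below 0.05) and with a pseudocount of 0.1 called 11 genes, PTGES3 among them. The DESeq2 Wald test called 317 genes and 3 members. The cause of these differences was not tested. Among genes named by the rule above, the sign turned for 6. The log2 fold change in counts was small for all of these except DNAJA2, where it was -0.17 (SE 0.046). Without 1 library CDC37 ran from -0.039 to 0.15, ST13 from -0.040 to 0.014, STUB1 from -0.025 to 0.11, AHR from -0.086 to 0.029 and NR3C1 from -0.14 to 0.029. On log2(FPKM + 1), with or without a minimum mean of 1 FPKM, STUB1 was -0.0279, DNAJA2 0.0028 and NR3C1 0.0080, and with a pseudocount of 0.1 they were -0.0285, 0.0029 and 0.0087. With 3 libraries a group, and estimated counts whose true depth is not known, the intervals given may be too narrow.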
